A study of Daphnia magna with 80 samples.

Results

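The 100 genes described here stood higher in females of 25 to 45 days than in both younger females of 10 and 15 days and older females of 60 to 80 days. They were chosen from female CPM, counts brought to a common library size by the trimmed mean of M values (TMM). Of the 26646 gene IDs in the count table, 11456 had a female median of at least 3 CPM. For each of these the median CPM in the 3 age windows was taken, and the log2 ratios of the middle window over the young window and over the old window were formed. The smaller of these ratios, called the peak score below, ranked the genes, and the 100 highest were kept. The height of the middle window is therefore how the genes were picked, and it is given below as a description without a test.

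Daphnia magna is a planktonic crustacean whose females mostly reproduce without mating. Under benign conditions a female lays a clutch into her brood pouch after each adult moult and releases genetically identical daughters, and certain cues make her produce sons of the same genotype instead. Yolk provisioning, moulting and growth recur in cycles through adult life, so a whole adult female can differ from another of equal age by her place in that cycle, and males moult but carry no eggs. The count table pairs its IDs with no gene names, and 0 of 26646 IDs matched the locus tags of the reference table, so members are given by ID and no function is assigned to any of them.

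Whole animals of strain Bham2, genetically identical in both sexes, were kept in high hardness COMBO medium under normal conditions and fed Chlorella vulgaris. There were 37 male libraries, of 13 ages between 8 and 40 days, and 39 female libraries, of 15 ages between 10 and 80 days. Animals were frozen with an empty brood pouch. Each age held 1 to 3 libraries, and all groups share the strain, medium and food. The labels do not say whether replicates were separate cultures or animals, or how many animals made a sample, so a p-value here reflects only how far these samples scatter, which may be technical. In whole animals, fewer cells of a type and less RNA per cell cannot be told apart.

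Male libraries held 1599627 to 33480868 gene counts (median 19608955) and female libraries 2242215 to 27789716 (median 19077345). Below 6000000 lay 3 libraries, namely male 33 days replicate 3, female 65 days replicate 2 and female 75 days replicate 2. The log2 ratio of spike-in SIRV7 to SIRV1, synthetic RNAs added to each library, divided the 76 libraries into a higher cluster of 28 and a lower cluster of 48. Of the female libraries used in the choice, the higher cluster held 0 of 6 in the young window, 7 of 14 in the middle window and 1 of 11 in the old window. This cluster moves with the windows, and its part in the result was not tested. In the lower cluster alone the members' median peak score was 0.97, against 1.02 in all libraries, and 99 of 100 stayed above 0, beside 18.37% of the 11456 genes. The choice used these same libraries and favoured high scores in them, so these values are a description and not a test.

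The members covered a wide range of abundance. Their female medians ran between 3.06 and 4590 CPM, with a median of 39.2 CPM, against 16.8 CPM for the 11456 genes. Together they held 1.31% of the gene counts in the median male library (range 0.601% to 2.74%) and 2.60% in the median female library (range 0.854% to 5.93%). The median over members was 21.3 CPM in young, 60.7 CPM in middle-aged and 24.3 CPM in old females. On the log2 scale the middle window stood above the young one by 0.88 to 5.11 (median 1.48) and above the old one by 0.86 to 3.08 (median 1.14). The smaller ratio was the one to the old window for 69 members and the one to the young window for 31. Across the 11456 genes 2337 (20.4%) had a peak score above 0, and the median score was -0.26. At the edge of the list scores changed by little: the last 5 members scored 0.876 to 0.865, and the next 5 genes, which were left out, scored 0.863 to 0.851.

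The highest peak score belonged to APZ42_012681, an ID of low abundance. Its CPM was 0.308, 1.95 and 6.57 (lowest, median and highest of 6 libraries) in young females, 4.04, 8.45 and 25.6 in 14 middle-aged libraries and 0, 1.39 and 11.8 in 11 old libraries. The windows overlapped in both comparisons, and within the young window all 3 libraries of 10 days lay under 0.38 CPM while all 3 of 15 days lay above 3.5 CPM. APZ42_021011, with the next score, had 0.0371, 14.1 and 51.1 CPM in young, 5.28, 59.6 and 108 CPM in middle-aged and 0.653, 14.4 and 47.0 CPM in old females. Its windows overlapped widely: the 5.28 CPM of 40 days replicate 1 was below 5 of the 6 young libraries. The most abundant member, APZ42_022505, had 1844, 2659 and 3808 CPM in young, 4080, 8325 and 18300 CPM in middle-aged and 1376, 3629 and 7214 CPM in old females. Each of its 14 middle-aged libraries was above all 6 young ones, while the old libraries overlapped the middle ones.

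Replicate spread was large beside these differences. In 14 of the 100 members every middle-aged library was above every young library, beside 2.6% of the 11456 genes. In 0 members was every middle-aged library above every old one, beside 0.122% of the genes, and in 0 members did the middle window clear both others, beside 0.00873%. The choice used these same libraries, so nothing is read from these shares; they say that the list rests on medians and not on separated windows.

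Timing was followed with a relative level per library: the median over members of log2 CPM less each gene's mean over the 39 female libraries. It was -0.70 at 10 days and -0.85 at 15 days, 0.20 at 20 days, 0.91 at 25 days, 0.67 at 30 days, 0.72 at 35 days, 0.24 at 40 days and 0.77 at 45 days (medians of 2 or 3 libraries). It was then 0.04 at 50 days, 0.64 at 55 days, -0.37 at 60 days, -0.39 at 65 days, -1.05 in the single library of 70 days, -0.70 at 75 days and -0.41 at 80 days. The age medians formed a plateau with lower values at 40 and 50 days more than a single summit, a shape that was not tested. The 2 libraries of 40 days (0.22 and 0.25) lay within the ranges of 30 and of 35 days. The 3 libraries of 25 days lay within 0.03 of each other (0.89 to 0.92), whereas those of 30 days ran between -0.08 and 0.97 and those of 50 days between -0.81 and 0.10. The relative level of the young libraries lay between -0.97 and -0.42, of the middle ones between -0.08 and 1.04 and of the old ones between -1.05 and 0.11. All 14 middle libraries exceeded all 6 young ones on this summary, and 30 days replicate 1 was the only middle library below the highest old one.

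**Figure D1:**
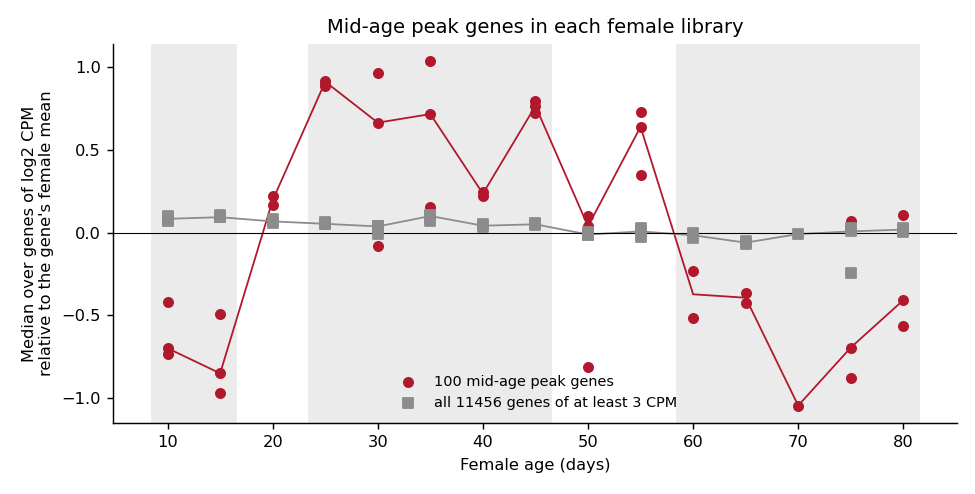
Each point is 1 female library; the x axis is age in days and the y axis the median over genes of log2 CPM relative to each gene's mean over the 39 female libraries. Red circles are the 100 mid-age peak genes and grey squares all 11456 genes of at least 3 CPM, lines join the medians of each age, and grey bands mark the 3 windows used to choose the genes. The red points lie between -0.97 and -0.42 at 10 and 15 days, reach 0.91 at 25 days and are -0.37 at 60 days, and the libraries of 30, 35, 50 and 75 days differ widely from each other.

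The members did not share 1 age of highest level. The highest age median fell at 25 days for 28 members (beside 2.497% of the 11456 genes), at 35 days for 26 (12.67%) and at 45 days for 24 (2.156%), with 8 at 30 days (4.12%) and 7 at 40 days (2.575%). For 7 members it fell outside the window, at 50 to 70 days. The highest library of the window was 35 days replicate 3 for 28 members (17.55% of the 11456 genes), 25 days replicate 3 for 16 (4.007%), 45 days replicate 2 for 12 (4.12%) and 30 days replicate 3 for 11 (11.32%). It was 35 days replicate 2 for 0 members (15.02%) and 40 days replicate 2 for 0 (4.967%). Replicates of 35 days thus supplied both the largest count and a count of 0.

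Within the middle window the later and earlier ages were compared directly, a difference the choice had not used. Of the 100 members, 0 were called higher and 0 lower at 40-45 days (5 libraries) than at 25-30 days (6 libraries) by edgeR's quasi-likelihood test at an adjusted p under 0.05, beside 0.164% and 0.0713% of 18238 genes. At an unadjusted p under 0.05, 3 members were higher and 23 lower, beside 6.14% and 5.89% of genes. DESeq2 called 0 members higher and 7 lower, beside 1.67% and 1.55% of the genes to which it gave an adjusted p. The members' median log2 change was -0.27, with 65 of 100 below 0, against 0.03 for all genes tested. By the covariation groups defined below, formed from the same libraries, it was -0.08 in the 72 members of group A and -1.87 in the 18 of group B. The lower share thus exceeded that of all genes by DESeq2 and without adjustment, while edgeR made no adjusted call among the members. Members of group B varied together (median correlation 0.86), so their changes are not separate results. The higher spike-in cluster held 3 of 3 libraries at 25 days and 2 of 3 at 30 days. At 40 days it held 0 of 2 and at 45 days 1 of 3. The ages compared thus differed in cluster as well, and the cause of the shift was not tested.

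The ages of 20 and of 50 and 55 days lay in none of the windows. They entered the choice only through the scaling and the female median of at least 3 CPM. At 20 days the median of 2 libraries was above the young-window median for 94 members, beside 47.23% of the 11456 genes, and above the middle-window median for 4, beside 54.5%. The members' median log2 ratio of 20 days over the young window was 0.83, and 70 members had reached at least the midpoint on the log2 scale between the young and middle windows, beside 52.17% of genes. At 50-55 days the median of 6 libraries was below the middle window for 85 members, beside 54.16% of genes, and above the old window for 99, beside 53%. The median log2 ratio of 50-55 days over the middle window was -0.40. The windows that these ages are set against were used in the choice, so the counts describe where the members stood on either side of the window and are not a test. The higher spike-in cluster held 2 of 2 libraries at 20 days, beside 0 of 6 in the young window. It held 2 of 3 at 50 days and 3 of 3 at 55 days, beside 1 of 11 in the old window. Age and cluster cannot be told apart between 20 days and the young window, and they largely go together between 50-55 days and the old window.

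These outer ages were also compared with each other. At 50-55 days (6 libraries), 1 member was called higher and 2 lower than at 20 days (2 libraries) by edgeR, beside 1.79% and 6.29% of 18238 genes, and the members' median log2 change was 0.09, against 0.08 for all genes. APZ42_001558 had 3.996, 5.69 and 10.9 CPM (lowest, median, highest) at 50-55 days and 15.9 and 20.7 CPM at 20 days, which do not overlap, a log2 change of -1.53 ± 0.30 (SE, edgeR adjusted p = 0.00138). APZ42_026670 had 214 to 554 CPM at 50-55 days and 670 and 982 CPM at 20 days, a log2 change of -0.90 ± 0.27 (adjusted p = 0.031). The member called higher, APZ42_015843, had 5.77 to 23.8 CPM at 50-55 days and 3.21 and 4.20 CPM at 20 days, a log2 change of 1.72 ± 0.53 (adjusted p = 0.0416). In none of these 3 genes did the ages overlap, but the calls rest on 2 libraries of 20 days. Without replicate 2 of 20 days the edgeR adjusted p was 0.15 for APZ42_001558, 0.745 for APZ42_026670 and 0.59 for APZ42_015843, and 0 members were called in either direction, beside 0% of genes higher and 0.335% lower. The call of APZ42_015843 was also lost without 20 days replicate 1, 50 days replicate 1 or 55 days replicate 2 or 3 (adjusted p of 0.0621 to 0.144). That of APZ42_026670 was also lost without 50 days replicate 2 or 55 days replicate 1 or 2 (adjusted p of 0.0545 to 0.072).

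The windows at either end hid some movement of single members. At 15 days, 1 member was called higher and 1 lower than at 10 days (3 libraries each), beside 0.515% and 3.17% of all genes. APZ42_018850 had 0.305, 1.00 and 0.444 CPM at 15 days and 6.34, 3.63 and 2.30 CPM at 10 days, a log2 change of -2.82 ± 0.56 (edgeR adjusted p = 0.00216). The member called higher was APZ42_012681 at 3.93, 3.54 and 6.57 CPM at 15 days and 0.371, 0.308 and 0.345 CPM at 10 days, a log2 change of 3.74 ± 0.77 (adjusted p = 0.00319); as the mean of this gene is under the abundance limit for naming, it was named here after its values were seen. In both genes the ages did not overlap, and they moved in opposite directions while the list as a whole had a median log2 change of -0.09.

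At 75-80 days (6 libraries), 2 members were called higher and 3 lower than at 60-65 days (4 libraries), beside 9.63% and 2.79% of genes, with a median log2 change of 0.08 against 0.13 for all genes. APZ42_001558 had 2.96 to 14.1 CPM at 75-80 days and 1.03 to 3.72 CPM at 60-65 days, a log2 change of 1.71 ± 0.30 (edgeR adjusted p = 0.000433). This member was thus lower at 50-55 than at 20 days and higher at 75-80 than at 60-65 days. APZ42_024018 had 21.1 to 40.5 CPM at 75-80 days and 39.2 to 52.4 CPM at 60-65 days, overlapping only through 75 days replicate 3, a log2 change of -0.84 ± 0.16 (adjusted p = 0.00128). APZ42_029562 had 223 to 477 CPM at 75-80 days and 396 to 616 CPM at 60-65 days, a log2 change of -0.61 ± 0.19 (adjusted p = 0.0305), and this call was lost without any of 7 single libraries. The other member called higher, APZ42_012681, gave 2.25 ± 0.68 (adjusted p = 0.0297). The third one lower had a mean under the abundance limit and gave -1.40 ± 0.36 (adjusted p = 0.0104). The count of members called higher was 9 without 75 days replicate 1 (beside 11.5% of genes) and 4 without 65 days replicate 3 (12.8%) or without 80 days replicate 3 (8.09%). It was 1 without 60 days replicate 1, 65 days replicate 2 or 80 days replicate 2 (6.98% to 8.08%), and the count called lower was 7 without 75 days replicate 3 (3.58%).

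The members varied more between libraries of 1 age than most genes. The SD of log2 CPM within an age had a median of 0.778 in males (range 0.157 to 2.72) and 0.603 in females (range 0.246 to 2.42), against 0.336 in males and 0.368 in females for the 11456 genes. It lay above the upper quartile of those genes for 77 members in males and 60 in females. The female libraries were used in the choice, which can favour genes with large scatter, so the female excess is a description. Male libraries took no part in the choice. In neither sex were the members matched to the other genes by abundance. The smallest female value, 0.246, belonged to APZ42_024018, whose medians were 12.98, 49.3 and 26.8 CPM in young, middle-aged and old females, and APZ42_021011, at 2.36, was among the members with the largest.

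**Figure D2:**
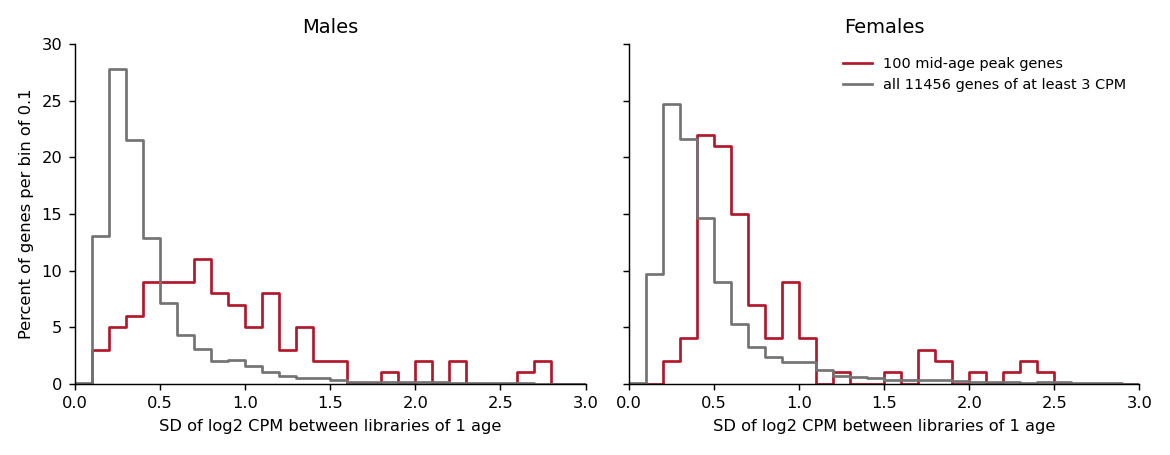
The x axis is the SD of log2 CPM between libraries of 1 age and the y axis the percentage of genes in each bin of 0.1, for males on the left and females on the right. The red line (100 mid-age peak genes) lies to the right of the grey line (all 11456 genes of at least 3 CPM) in both sexes, with medians of 0.778 against 0.336 in males and 0.603 against 0.368 in females.

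Replicates deviated in patterns that many members shared. After each gene's age mean was removed, the median correlation between a pair of members across the female libraries was 0.23, against 0.02 for a sample of 1146 of the 11456 genes, taken at even steps through the table. These correlations are between genes measured in the same libraries. Whatever differs between libraries, such as depth, can enter them, and they carry no test. Average linkage of the deviations was cut into 4 covariation groups: A with 72 members, B with 18, C with 9 and D with 1. The median correlation was 0.46 within A, 0.86 within B, 0.55 within C and -0.22 between A and B. The groups were formed from these values, so the counts given for them below are descriptions.

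Group B was the most variable. Its median SD within an age was 1.54 in males and 1.73 in females, against 0.71 in males and 0.54 in females for group A. At 10 days the relative level of group B was -4.22, -0.21 and -1.33 in the 3 female libraries, while group A had -0.52, -0.45 and -0.63 in the same libraries. APZ42_021011, a member of B, shows this in CPM, with 0.0371, 18.0 and 10.2 at 10 days and 57.6, 70.3 and 1.97 at 50 days. The spread within 1 age was thus larger than the difference between age windows for this gene. In 30 days replicate 1, the library with the lowest relative level of the middle window, group A was at -0.41 and group B at 1.90, and 50 days replicate 2 was similar at -1.12 and 1.77. In these 2 libraries group A was low and group B high; in others, such as 10 days replicate 1, both were low, and in 35 days replicate 2 group A stood at 0.18 and group B at -0.41.

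The groups also differed in timing. Group B was highest at 25 to 35 days, where 8 of 9 libraries lay between 1.10 and 2.32 and 35 days replicate 2 at -0.41, and it stood at -1.61 and -0.04 in the libraries of 40 days. For 10 of its 18 members the highest age median was at 35 days and for 0 at 40 or 45 days. Group A was spread more evenly, with highest age medians at 25 days for 20 members, at 35 days for 16 and at 45 days for 21. Group A was still at 0.64, 0.43 and 0.69 at 55 days, when group B stood at 1.26, -2.69 and 0.20. Of the middle-aged libraries of group A, 13 of 14 lay between 0.18 and 0.98.

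**Figure D3:**
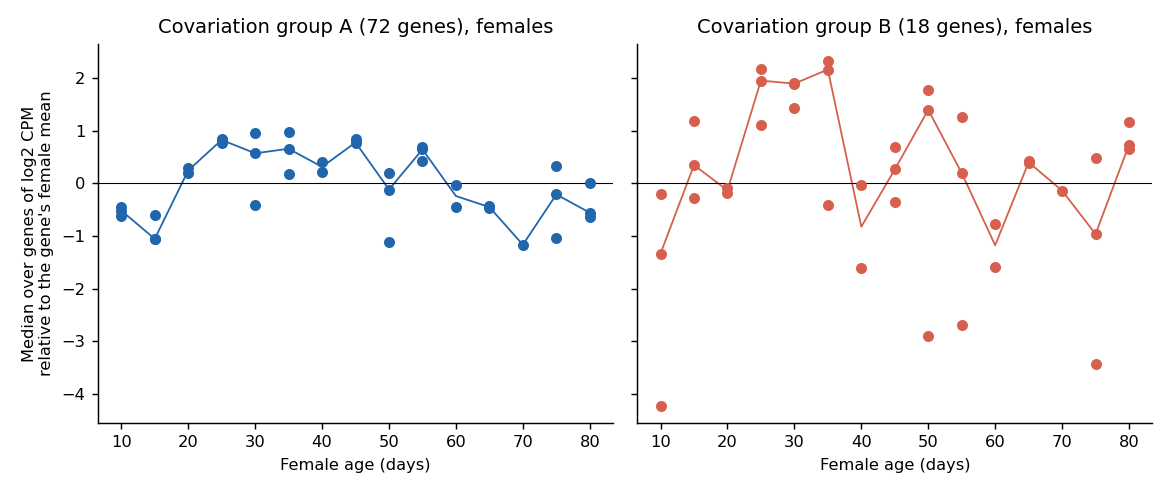
Relative level of covariation group A (72 genes, left) and group B (18 genes, right) in each female library against age in days, on the log2 scale relative to each gene's female mean; lines join the medians of each age. Group A stays between -1.17 and 0.98, whereas libraries of 1 age in group B differ by up to several log2 units, as at 10 days (-4.22 to -0.21) and 50 days (-2.89 to 1.77).

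Males stood lower than females for nearly every member. On a scale common to both sexes, the male median was below the female median for 99 of 100 members, beside 58.51% of the 11456 genes, and at least 2-fold lower for 66, beside 11.97%. The median log2 difference, males over females, was -1.29 for the members and -0.11 for those genes. The member outside this pattern was APZ42_022503 at 0.51. The male median was at least 3 CPM for 80 members, so most were measurable in males at these depths. Female libraries of the middle window were used in the choice and raise the female median, so these counts are not a test of sex.

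The gap differed between ages. At 10 days the median log2 difference of males over females was -0.19, with 63 members lower in males, and at 15 days it was 0.03, with 49 lower. At 20 days it was -1.56, with 91 lower, at 25 days -1.61, with 100 lower, and at 30 days -1.74, with 98 lower. At 35 days it was -1.21, with 88 lower, and at 40 days -1.23, with 81 lower. At the same ages the 11456 genes had a median between -0.16 and -0.02, with 51.2% to 59.4% lower in males. The medians of the sexes were thus close at the youngest shared ages, where the choice favoured low female values, and far apart at the middle ages, where it favoured high ones. The higher spike-in cluster held 0 male and 0 female libraries at 10 days and 2 and 0 at 15 days. It held 0 and 2 at 20 days, 1 and 3 at 25 days and 1 and 2 at 30 days. At 35 days it held 2 and 1 and at 40 days 2 and 0. After 10 days the sexes thus differed in cluster too, and its part in the gap was not tested here.

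The age of 20 days is the only shared one whose female libraries lay in none of the windows. They still entered the choice through the scaling and the female median of at least 3 CPM. At 20 days, edgeR called 41 members lower in males and 1 higher at an adjusted p under 0.05 (2 libraries a sex). The shares over the 19431 genes tested were 9.46% and 9.67%. The median log2 change was -1.62 for the members, with 91 of 100 below 0, and -0.01 for all genes. Below 0 were 51.2% of all genes tested. Of the 11456 genes that passed the same female filter, 59% had a lower median in males at this age. Of the 41, group A gave 37, C gave 3, D gave its single member and B gave 0, although the median change in B was -0.91. APZ42_024018 had 5.51 and 9.58 CPM in males and 33.9 and 32.6 CPM in females, a log2 change of -2.10 ± 0.28 (adjusted p = 8.26e-08). APZ42_026670 had 115 and 154 CPM in males and 658 and 942 CPM in females, a log2 change of -2.53 ± 0.34 (adjusted p = 9.25e-08). The sexes did not overlap in either gene.

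The member called higher in males at 20 days was APZ42_022503, with 6103 and 5646 CPM in males and 1381 and 1998 CPM in females, a log2 change of 1.84 ± 0.42 (edgeR adjusted p = 0.00103). Both females of 20 days belonged to the higher spike-in cluster and both males to the lower one, so at this age the sexes and the clusters cannot be told apart. With the cluster as a term of the model, estimated from the other ages, 35 members were called lower, beside 7.93% of genes. Without 1 library at a time, 13 were called lower without male replicate 1 (beside 8.21% of genes), 25 without male replicate 2 (5.84%), 29 without female replicate 1 (7.7%) and 19 without female replicate 2 (5.24%), the lone library being assumed to vary like the other groups.

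**Figure D4:**
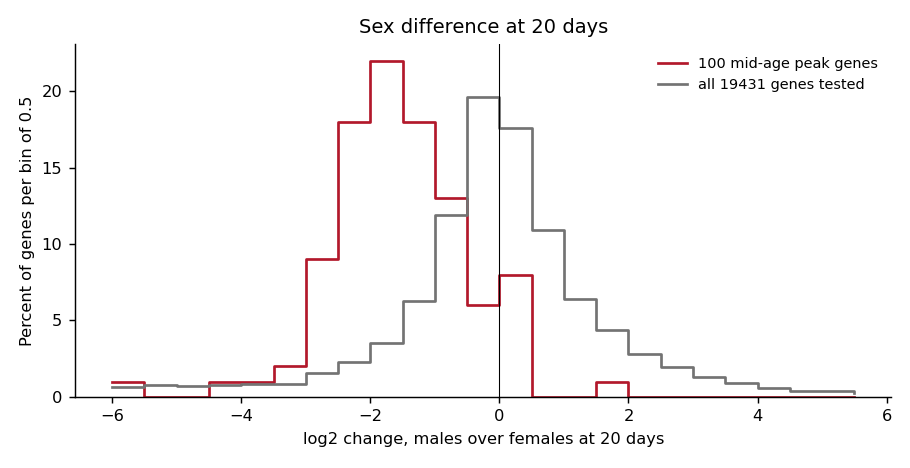
The x axis is the log2 change of males over females at 20 days (2 libraries a sex) and the y axis the percentage of genes in each bin of 0.5, for the 100 mid-age peak genes (red) and all 19431 genes tested (grey); genes beyond 6 in either direction are not drawn. The members centre on -1.62 and all genes on -0.01.

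In the authors' deposited table for sex, 57 members had a positive adjusted call, beside 18.1% of genes, and 1 a negative one, beside 25.2%. The file headers do not say which sex a positive sign favours; in the counts all 57 had a higher mean log2 CPM in females. In the authors' deposited table for age 2 members had a positive call, beside 24.3%, and 12 a negative one, beside 18.2%. Log2 CPM rose with age over both sexes together in 8 of these 12 members, and in 19.7% of all genes with a negative call. That slope had no term for sex, and all libraries older than 40 days were female. As the members stood lower in males, the slope mixes sex with age. It does not settle whether these 12 members fell with age. In the authors' deposited table for the change of the sex difference with age 3 members had a positive call, beside 5.92%, and 7 a negative one, beside 9.34%. A negative sign there went with a slope on age that was higher in females than in males, in all 7 members and in 99.9% of genes with such a call. The members' share of calls was below that of all genes for a positive age effect and above it for a positive sex effect. For a negative age effect and for the change of the sex difference the shares were nearer those of all genes, and nothing is read from them. The choice favoured genes that were low in young and old females and high in middle-aged ones. These shares therefore partly follow from the choice and are not a test.

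The male course over the same calendar ages had no such shape. Male libraries were not used in the choice. The relative level in males was -1.48 at 8 days, -0.70 at 10 days, -0.91 at 15 days, -1.10 at 18 days, -1.44 at 20 days, -1.06 at 23 days and -0.78 at 25 days (medians of 2 or 3 libraries). It was -2.67 at 28 days, -1.13 at 30 days, -2.03 at 33 days, -0.59 at 35 days, -1.97 at 38 days and -1.04 at 40 days. Ages of 28, 33 and 38 days thus stood below their neighbours on either side. The male median at 25-30 days was above those at both 10-15 and 38-40 days for 14 members, beside 24.23% of genes.

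At 25-40 days (20 libraries), 0 members were called higher and 24 lower than at 10-15 days (6 libraries) by edgeR, beside 7.32% and 9.33% of 18325 genes. At an unadjusted p under 0.05, 2 members were higher and 46 lower, beside 13.6% and 15.7% of genes. DESeq2 called 1 member higher and 26 lower, beside 9.67% and 10.6%. The median log2 change was -0.60, with 79 of 100 below 0, and 0.01 for all genes. APZ42_001569 had 2.997, 9.997 and 36.0 CPM (lowest, median, highest) at 25-40 days and 24.0, 53.7 and 122 CPM at 10-15 days, a log2 change of -2.55 ± 0.23 (adjusted p = 3.7e-09). The same gene stood at 45.5 CPM in middle-aged and 5.83 CPM in young females. Its female medians at 20 days (62.7 CPM) and at 50-55 days (79.8 CPM) were above that of the middle window. Its female libraries of 30 days held 254 to 303 CPM, above all others of that window. APZ42_022505 had 1146, 2112 and 3416 CPM in males at 25-40 days and 3329, 4272 and 5846 CPM at 10-15 days, a log2 change of -1.14 ± 0.12 (adjusted p = 3.92e-08). In males both genes stood lower at 25-40 than at 10-15 days, whereas their medians in middle-aged females were above those in young females.

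Much of the count of lower members rested on the ages of 28, 33 and 38 days. Without these 9 libraries, an alternative chosen after the values were seen, 7 members were called higher and 11 lower, beside 4.51% and 6.72% of genes, and the members' median log2 change was 0.06. With all ages, the count of members called lower ran between 17 without 10 days replicate 3 or without 15 days replicate 3 (beside 7.54% and 7.61% of genes) and 44 without 28 days replicate 1 (10.9%). By group, 21 of the 24 belonged to A, 3 to C and 0 to B.

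The 9 libraries of 28, 33 and 38 days had relative levels of -2.76 to -1.64 (median -2.03), and the 11 libraries of 25, 30, 35 and 40 days of -1.46 to 0.01 (median -0.91), with no overlap. Group A was at -3.70 to -1.503 in these 9 libraries and at -1.44 to 0.16 in the 11 others, again with no overlap, whereas group B had medians of -1.03 in the 9 and -1.47 in the 11 and overlapped. The male median was at least 2-fold lower at 28, 33 and 38 days for 56 members, beside 4.26% of the 11456 genes; these were 52 of the 72 members of A and 0 of the 18 of B. In APZ42_026670 the 9 libraries held 32.6 to 108 CPM and the 11 others 61.0 to 104 CPM, which overlap through the shallow 33 days replicate 3, the other 8 libraries lying between 32.6 and 67.1 CPM and overlapping only 2 of the 11 others. The ages were set apart after their values were seen, so these are descriptions. The higher spike-in cluster held 3 of the 9 libraries and 6 of the 11, and 1 of the 9 was the shallow 33 days replicate 3.

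**Figure D5:**
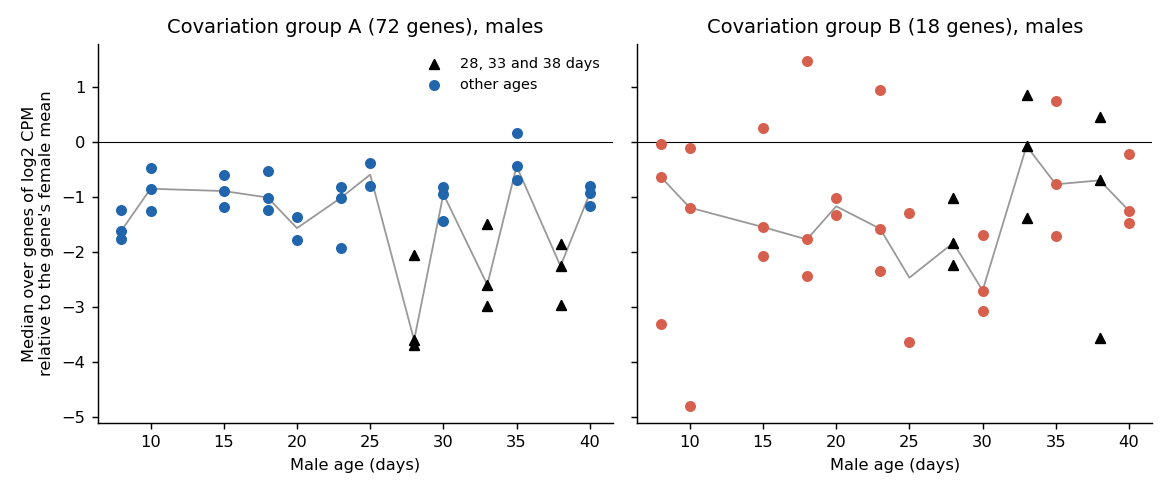
Relative level of covariation group A (72 genes, left) and group B (18 genes, right) in each male library against age in days, on the log2 scale relative to each gene's mean over the female libraries; the grey line joins the medians of each age. Black triangles mark 28, 33 and 38 days, which in group A lie at -3.70 to -1.503, below the other libraries of 25 to 40 days at -1.44 to 0.16, and in group B lie among them.

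At 38-40 days (6 libraries), 0 members were called higher and 2 lower than at 25-30 days (8 libraries), beside 1.84% and 0.84% of 18325 genes, with a median log2 change of -0.06. APZ42_011280 had 14.6 to 21.6 CPM at 38-40 days and 18.1 to 31.0 CPM at 25-30 days, which overlap, a log2 change of -0.38 ± 0.10 (edgeR adjusted p = 0.0274). APZ42_027566, under the abundance limit and named after its values were seen, gave -1.29 ± 0.31 (adjusted p = 0.0196). Without 28 and 38 days 2 members were called higher and 0 lower, beside 1.53% and 0.722% of genes, and without 28 days replicate 1 alone 9 were called higher, beside 2.68%. The count called lower was 0 without 25 days replicate 1, 38 days replicate 2 or 40 days replicate 2, and 1 without 25 days replicate 2, 28 days replicate 2, 30 days replicate 1, 40 days replicate 1 or 40 days replicate 3, beside 0.262% to 0.672% of genes in these fits.

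Males nonetheless had an age of highest level that many members shared. The highest male age median fell at 35 days for 42 members, beside 6.041% of the 11456 genes. It fell at 8 days for 12 (22.64%), at 10 days for 10 (6.128%), at 33 days for 10 (6.32%) and at 28 days for 0 (8.039%). Of the 42 members highest at 35 days, 35 belonged to group A, and all 10 members highest at 33 days belonged to group B. Among the 3 libraries of 35 days the relative level was -0.59, -0.65 and 0.01, and the last of these, replicate 3, was the highest of all 37 male libraries.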

How the data were processed

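RNA of whole animals was made into Illumina TruSeq mRNA libraries and read in pairs, per the labels' protocols. The submitters' processing notes list TopHat2 2.1.1 and DESeq2 1.20. How reads were counted, with which strand setting, build and annotation, is not given in the sources used, and counts of near-identical, overlapping or antisense genes are uncertain. The authors deposited raw counts for 26646 gene IDs and 7 synthetic spike-in rows, which entered neither library sizes nor tests. They held 0.217% to 1.72% of counts in males and 0.318% to 2.31% in females. The authors' deposited comparison tables give, per the file headers, a mean normalised signal (counts divided by size factors), a log2 change and its error, a score (the quotient of both) and a p-value with its adjusted value.

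Of 80 columns, 3 are of samples marked as excluded in the labels and entered nothing, and 2 runs of 1 male sample were summed, which left 76 libraries, of which no pair was identical. Genes with at least 0.5 CPM in at least 3 of the libraries fitted were compared in R 4.3.3 by edgeR 4.0.16 (TMM, quasi-likelihood F-test, 1 mean per age group, Benjamini-Hochberg over all genes tested, adjusted p under 0.05). Fits held all female libraries, all male libraries, or both for the comparison of the sexes. A log2 change is given with its standard error, and a prior count of 2 was added for log2 CPM. All 100 members passed the filter in every fit. Female windows are on a TMM scale over females, and male values and comparisons of the sexes on 1 over all 76 libraries.

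The members, lists, groups and tests were chosen with earlier results of these data known. Named members are the 2 of highest peak score, the most abundant, and per test up to 2 called higher and 2 lower with the smallest p among those with a mean log2 CPM of at least 3. Alternatives included DESeq2 1.42.0, other scalings and filters, a replicate block, other windows and each library left out in turn. The procedures were run on simulated data with planted changes as a check of the code. The simulated spread was not set to that of the members, so nothing about the members is read from it. Figures were drawn with matplotlib 3.10.9.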

Additional observations from a re-analysis of the deposited data

Results flagged for a closer look

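Of 21 groups of values examined for a library far from the rest of its group, 3 held one. The limit used flags about 1 in 20 groups of independent, normally distributed values. Single genes were examined in CPM without a log scale, and groups share libraries, so the rate for these groups is not known. Among the 6 female libraries of 25-30 days, the relative level of the list was -0.082 in 30 days replicate 1, and the nearest other library was at 0.665. Among the 6 female libraries of 75-80 days, APZ42_024018 had 40.52 CPM in 75 days replicate 3, with the nearest other at 26.75 CPM. Among the 6 female libraries of 50-55 days, APZ42_015843 had 23.83 CPM in 50 days replicate 1, with the nearest other at 11.75 CPM. What sets these libraries apart was not tested.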

How the results depend on the processing

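Membership of the list depended on its settings. Of the 100 members, 65 stayed among the top 100 with a middle window of 25-40 days and 48 with spike-in library sizes, against 71 in the lower spike-in cluster alone and 76 to 92 with 1 library left out.

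Counts of members called moved as follows, with the share of all genes called in parentheses, and the cause was not tested. With DESeq2, 2 were higher (1.52%) and 6 lower (5.33%) at 15 than at 10 days, 7 lower at 40-45 than at 25-30 (1.55%), 4 higher at 50-55 than at 20 (5.87%), 6 higher at 75-80 than at 60-65 (12.4%), and in males 1 higher at 25-40 than at 10-15 (9.67%). Spike-in library sizes moved the median log2 change of all genes to between -1.01 and 0.16. With them, members' and all genes' medians were -0.68 and -0.62 at 15 against 10 days, -1.06 and -1.01 at 50-55 against 20 days, and -2.44 and -0.87 for males against females at 20 days. With them, 13 were lower at 15 than at 10 days (4.48%), 0 higher (0.0384%) and 46 lower (36%) at 50-55 than at 20, 0 higher (0.51%) and 0 lower (0.0384%) at 75-80 than at 60-65, in males 5 lower at 25-40 than at 10-15 (1.03%) and 0 lower at 38-40 than at 25-30 (0.0109%), and 0 higher in males than in females at 20 days (1.36%). Without libraries under 6000000 counts, 4 were lower at 15 than at 10 days (3.87%), 2 lower at 40-45 than at 25-30 (0.453%), 2 higher at 50-55 than at 20 (3.75%) and 1 higher at 75-80 than at 60-65 (8.36%). With the spike-in cluster as a term, 6 were higher at 75-80 than at 60-65 days (9.24%) and 1 lower in males at 38-40 than at 25-30 (0.628%); without a filter on low counts that last count was also 1 (0.458%). Without 28, 33 and 38 days, 7 were higher (4.51%) and 11 lower (6.72%) in males at 25-40 than at 10-15 days, and without 28 and 38 days 2 higher (1.53%) and 0 lower (0.722%) at 38-40 than at 25-30.

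With 1 library left out, counts ran 0 to 1 higher and 0 to 2 lower at 50-55 against 20 days, 1 to 9 and 2 to 7 at 75-80 against 60-65, 0 to 1 and 17 to 44 in males at 25-40 against 10-15, 0 to 9 and 0 to 3 in males at 38-40 against 25-30, and 13 to 29 lower in males at 20 days.

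Replicate numbers did not pair the samples: residuals of libraries with the same number correlated at -0.001 on average in males and -0.019 in females. With a replicate block, 1 member was called higher in males at 25-40 than at 10-15 days (7.44%), and the other counts moved by at most 1.5 times. Of 232 further values of single named genes, 197 kept direction and call, 35 lost the call and 0 reversed. Depth limits the members of low abundance: APZ42_012681 and APZ42_015843 had 0 counts in female 75 days replicate 2, of 2242215 gene counts.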

Other observations

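The pair of abundant members APZ42_022503 and APZ42_022505 carry ID numbers on either side of APZ42_022504, the fifth gene below the end of the list. APZ42_022504 had medians of 2282, 5906 and 3274 CPM in young, middle-aged and old females, APZ42_022503 of 1940, 4151 and 2138 CPM, and APZ42_022505 of 2659, 8325 and 3629 CPM. In all, 4 pairs of members had consecutive ID numbers. Whether neighbouring numbers mark neighbouring or similar genes is not given in the files. The 4 genes named here were singled out after their values were seen.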
